A study of Mus musculus with 18 samples.

Results

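The set described here is the cytosolic and microsomal conjugating enzymes: 66 genes of the 22298 in the deposited tables, of which 21 are sulfotransferases (Sult), 21 glucuronosyltransferases (Ugt), 22 glutathione transferases (Gst) and 2 synthases of the sulfate donor (Papss1 and Papss2). They were chosen by name, as the GENCODE M21 symbols that begin with Sult and a digit, with Ugt1, Ugt2 or Ugt3 and the letter a or b, or with Gst, a class letter (a, k, m, o, p, t or z) and a digit, plus both synthases, leaving out pseudogenes. Expression was measured by RNA sequencing of liver, epididymal white fat (eWAT) and inguinal white fat (iWAT) from C57BL/6 mice aged 12 weeks, with 3 libraries per group. The KO groups carry Bckdhaf/f;RIP-Cre and the WT groups Bckdhaf/f, so every mouse has the floxed Bckdha allele, which encodes a subunit of the branched-chain keto acid dehydrogenase, and no group carries RIP-Cre alone. RIP-Cre commonly denotes Cre recombinase driven by the rat insulin promoter, which acts in pancreatic beta cells and some neurons, so none of the 3 tissues is one in which the gene is commonly deleted by it. Neither the sex of the mice nor whether the libraries came from separate animals is stated in the sources used here, and the p-values measure the spread between these libraries.

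These enzymes carry out the second phase of the metabolism of drugs, hormones, bile acids and bilirubin: they attach a polar group that lets the product be excreted. Sulfotransferases move sulfate from the donor PAPS, which Papss1 and Papss2 make from inorganic sulfate and ATP. Glucuronosyltransferases use UDP-glucuronic acid in the endoplasmic reticulum, and glutathione transferases join glutathione to electrophiles such as the products of lipid peroxidation. Liver is the main organ of all 3 reactions.

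The libraries held between 16796147 and 28039742 expected counts. Bckdha itself did not pass the test in any tissue, with log2 fold changes of KO over WT of -0.08 in liver, -0.59 in eWAT and -0.04 in iWAT (edgeR quasi-likelihood test, adjusted p = 0.953, 0.802 and 0.9998). Hepatocyte markers were high in the 6 liver libraries and adipocyte markers in the fat libraries other than 1 of eWAT. The 6 epididymal epithelium markers together reached 41914 CPM (counts scaled to library size, here on a scale common to the 18 libraries) for the second WT replicate of eWAT, where the 6 adipocyte markers summed to 58.5 CPM against 3922 to 9320 CPM in the other 5 eWAT libraries. eWAT KO replicates 1 and 3 held the epididymal transcript Crisp1 at 1071 and 1238 CPM, against 0.776 CPM in KO replicate 2. Of the 6 epididymal markers only Crisp1 was high there, and no other stood above 14.1 CPM in any eWAT KO library. Gpx5 and Adam7 were higher in eWAT WT replicate 1, at 21.4 and 5.14 CPM, than in any eWAT KO library. In eWAT KO replicates 1 and 3, 5 smooth muscle markers summed to 2401 and 2317 CPM, against 128 CPM in KO replicate 2 and 216 to 585 CPM in the WT libraries. eWAT KO replicate 1 also held 4 spermatid markers at a sum of 475 CPM. Outside eWAT, liver WT replicate 2 had 5 endothelial markers at a sum of 84.2 CPM, against 220 to 293 CPM in the other 5 livers. In iWAT, 5 B cell markers summed to 5.19 CPM in WT replicate 2, against 301 to 1097 CPM in the other 5 libraries, and the spermatid markers to 21 CPM in KO replicate 1, against at most 0.321 CPM in the others. In bulk tissue, fewer cells of a type and less RNA per cell cannot be told apart.

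Levels were compared between genes by the authors' FPKM, which are per kilobase of gene length. Of the 66 genes, 7 had no read in any library (Sult2a2, Sult2a3, Sult2a4, Sult2a6, Sult3a2, Ugt2a1 and Ugt2a2). In WT liver, 6 sulfotransferases, 15 glucuronosyltransferases, 20 glutathione transferases and both synthases averaged at least 1 FPKM; in WT iWAT the numbers were 3, 3, 17 and 2. The glutathione transferases were the most abundant family everywhere, with a summed level of 4849 ± 876 FPKM in KO liver and 5221 ± 1341 FPKM in WT liver, of 2216, 1215 and 1853 FPKM in the KO eWAT libraries and 1713, 1955 and 1523 FPKM in the WT eWAT libraries, and of 1175 ± 478 FPKM in KO iWAT and 1004 ± 348 FPKM in WT iWAT (SD, n = 3 each).

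**Figure D1:**
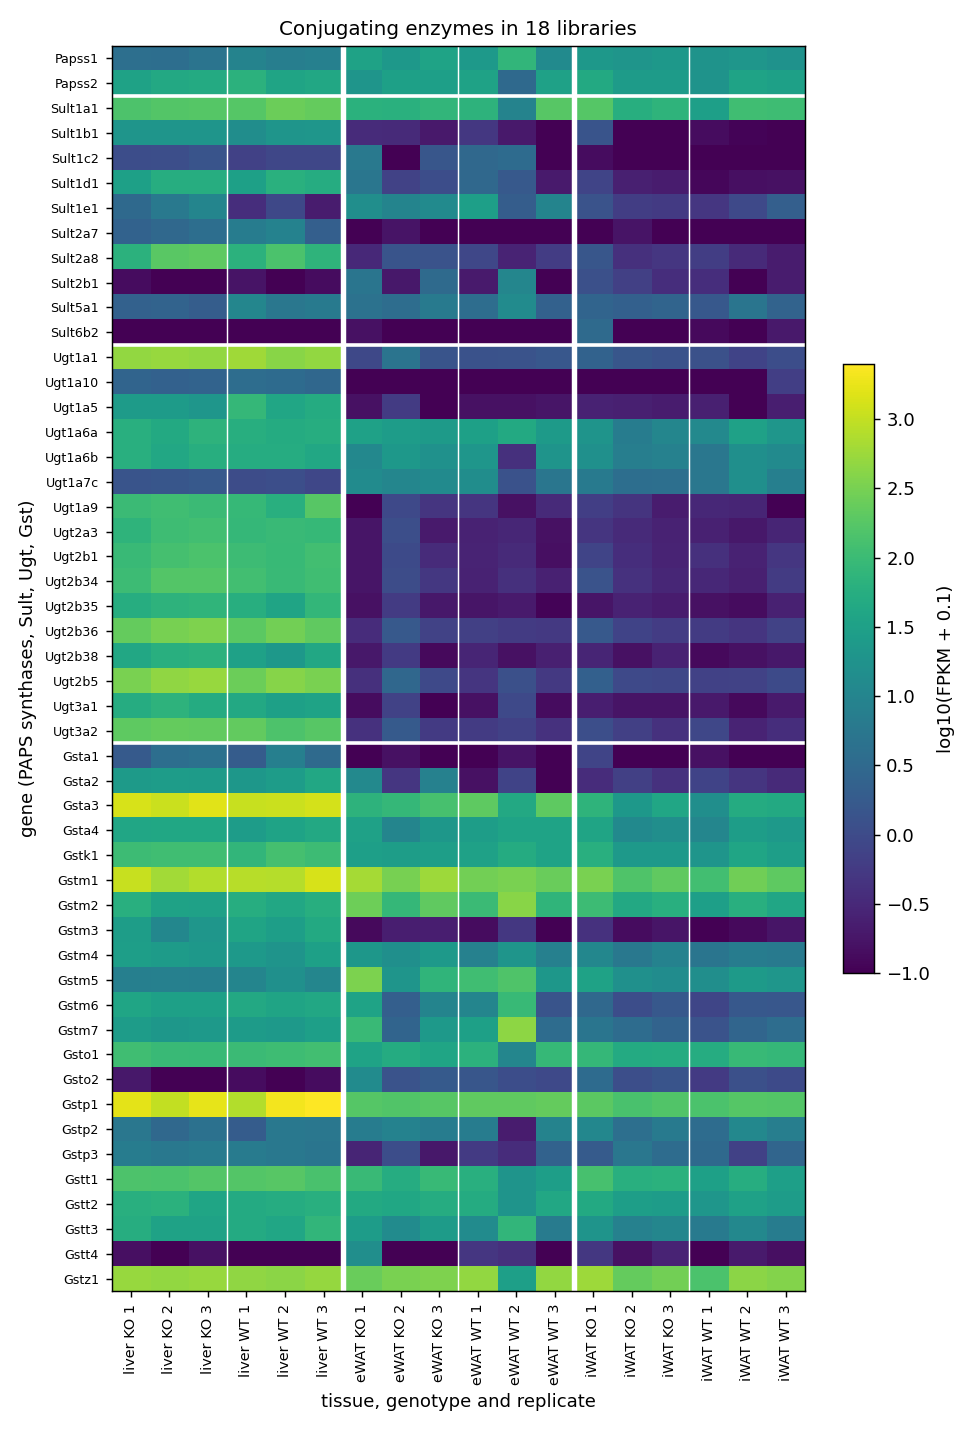
Level of every member that reached 1 FPKM in at least 1 library, as log10(FPKM + 0.1), in rows by family and in columns by tissue, genotype and replicate, with KO left of WT. Most Ugt genes are bright in liver and dark in both fat depots, most Gst genes are seen in all tissues, and eWAT WT replicate 2 stands apart from the other eWAT libraries.

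The levels of the synthases that supply PAPS lay closer to each other in iWAT than in liver. Papss2 stood at 34.4, 45.7 and 49.6 FPKM in KO liver, against 66.1, 37.0 and 43.6 FPKM in WT liver. Papss1 stood at 4.02, 3.84 and 4.85 FPKM in KO liver, against 9.26, 7.41 and 8.14 FPKM in WT liver. In iWAT Papss1 stood at 22.5, 19.2 and 21.9 FPKM in KO libraries, against 18.4, 20.5 and 17.6 FPKM in WT libraries, and Papss2 ranged from 18.3 to 46.5 FPKM. Papss2 was thus the more abundant synthase in each of the 6 liver libraries. The order of the tissues for Papss1 depended on the scale. For WT liver over WT iWAT its log2 fold change was 0.14 in the edgeR quasi-likelihood test (adjusted p = 0.546). With limma on log2(FPKM + 1) it was -1.10 (adjusted p = 1.12e-03), where the median of all genes was -1.21.

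Among the sulfotransferases, Sult1a1, which conjugates phenols, had the highest mean FPKM in all 6 groups. In single libraries, Sult2a8 was above Sult1a1 in KO liver replicates 2 and 3. In eWAT WT replicate 2, Sult5a1 at 13.1 FPKM and Sult2b1 at 10.6 FPKM were above Sult1a1 at 9.29 FPKM. Sult1a1 stood at 147, 170 and 174 FPKM in KO liver, against 176, 260 and 228 FPKM in WT liver. The next 2 in liver were Sult2a8, a member of the subfamily that acts on hydroxysteroids and bile acids, and Sult1d1. Sult2a8 varied more within genotypes than its means differed between them, at 68.1, 185 and 200 FPKM in KO liver, against 68.3, 142 and 73.5 FPKM in WT liver. Together these 3 genes made up 91.5 ± 1.7% of the summed sulfotransferase FPKM in KO liver and 91.5 ± 1.8% in WT liver (SD, n = 3 each). Sult2a1 and Sult3a1, which in mouse liver are known as female-predominant, reached at most 0.174 CPM in any liver library. In iWAT the family was nearly Sult1a1 alone, at 93.9 ± 0.6% of its summed FPKM in KO libraries and 93.8 ± 2.2% in WT libraries (SD, n = 3 each). In eWAT Sult1a1 took 64.0, 79.5 and 75.4% of the sum in KO libraries, against 63.3, 23.0 and 93.5% in WT libraries, with Sult1e1, the estrogen sulfotransferase, and Sult5a1 next by mean level.

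Among the glucuronosyltransferases, Ugt1a1, the enzyme that conjugates bilirubin, was the highest in liver, at 494, 527 and 492 FPKM in KO libraries, against 594, 419 and 484 FPKM in WT libraries. Ugt2b5 followed at 326, 470 and 525 FPKM in KO liver, against 258, 404 and 326 FPKM in WT liver, and Ugt2b36 at 229, 309 and 350 FPKM in KO liver, against 198, 286 and 214 FPKM in WT liver. Genes of the Ugt2b class are known to conjugate steroids and bile acids. Each of these 3 genes was below 5 FPKM in every fat library.

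Among the glutathione transferases, Gstp1, Gsta3 and Gstm1 led in liver and made up 74.7 ± 4.0% of the family's summed FPKM in KO liver and 75.6 ± 5.2% in WT liver (SD, n = 3 each). Gstp1, of the pi class, was the most variable of them, at 1643, 986 and 1755 FPKM in KO liver, against 790, 2116 and 2598 FPKM in WT liver. In fat the order was different. Gstz1, which isomerises maleylacetoacetate in the breakdown of tyrosine, led in iWAT at 579, 233 and 291 FPKM in KO libraries, against 143, 435 and 391 FPKM in WT libraries. A total of 465 exon bases of Gstz1 overlap Pomt2 on the opposite strand, and whether the kit marks strand is not stated in the sources used here.

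In fat, the genes of highest level were few. Sult1a1 stood at 64.2, 61.7 and 79.5 FPKM in KO eWAT, against 70.8, 9.29 and 181 FPKM in WT eWAT, and at 172, 58.1 and 73.1 FPKM in KO iWAT, against 30.7, 113 and 107 FPKM in WT iWAT. Sult1e1 stood at 14.7, 9.56 and 12.6 FPKM in KO eWAT, against 30.0, 1.92 and 9.65 FPKM in WT eWAT, and at no more than 2.08 FPKM in any iWAT library. It was not particular to eWAT, as it stood at 3.03, 5.92 and 9.81 FPKM in KO liver. Sult5a1 stood at 4.52, 3.65 and 6.07 FPKM in KO eWAT, against 3.62, 13.1 and 2.24 FPKM in WT eWAT, and between 1.55 and 5.06 FPKM in iWAT. In fat the KO and WT groups overlapped for all of these.

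Of the glucuronosyltransferases, Ugt1a6a, Ugt1a6b and Ugt1a7c had the highest levels in fat. Ugt1a6a, which acts on phenols, stood at 32.6, 26.9 and 25.0 FPKM in KO eWAT, against 31.0, 47.3 and 25.0 FPKM in WT eWAT, and at 19.1, 6.88 and 10.5 FPKM in KO iWAT, against 11.6, 32.9 and 20.8 FPKM in WT iWAT. Ugt1a6b ran from 5.52 to 21.9 FPKM in fat apart from eWAT WT replicate 2, where it stood at 0.30 FPKM. Ugt1a7c stood at 13.2, 10.2 and 12.8 FPKM in KO eWAT, against 14.49, 1.20 and 5.19 FPKM in WT eWAT.

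Gstm1 and Gstp1 stood beside Gstz1 among the abundant glutathione transferases of fat, and Gstm1 had the higher mean of the 3 in KO eWAT. Gstm1 stood at 651, 309 and 573 FPKM in KO eWAT, against 288, 333 and 245 FPKM in WT eWAT, and at 325, 155 and 209 FPKM in KO iWAT, against 118, 274 and 203 FPKM in WT iWAT. Gstp1 varied little, at 174, 159 and 180 FPKM in KO eWAT, against 208, 211 and 228 FPKM in WT eWAT, and between 138 and 194 FPKM in iWAT. Papss2 stood at 20.0, 32.0 and 29.8 FPKM in KO eWAT, against 33.9, 3.11 and 32.9 FPKM in WT eWAT, and was lowest in WT replicate 2.

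Liver was set against fat in the WT libraries to ask which members are liver enzymes. Liver was higher than iWAT for 41 of the 47 members tested and lower for 2, which makes 43 called members beside 62.1% of the 13647 genes tested, 27% called higher in liver and 35.1% lower (edgeR quasi-likelihood test, adjusted p under 0.05). Against eWAT, liver was higher for 30 of 47 members and lower for 3, making 33 beside 40.4% of 13352 genes, 17.6% called higher in liver and 22.8% lower. Of the tested members, 15 reached 10 counts in all 3 WT libraries of liver but not of iWAT, and 18 did so against eWAT. These passed the filter on low counts through liver alone and, apart from genes such as Gstp2 and Sult1c2 against eWAT, had to be higher there. For those 2 genes, 2 of the 3 WT eWAT libraries also reached 10 counts. WT eWAT held 288 counts of Gstp2 and 217 of Sult1c2, against 192 and 83 in WT liver. Gsto2 in both contrasts and Sult1e1 against eWAT passed through fat alone and had to be lower in liver. For all these genes the fold changes below are descriptions. The median log2 fold change of the tested members was 4.88 for liver over iWAT, where the median of all genes was -0.22, and 3.47 for liver over eWAT, where it was -0.15. The counts against eWAT depended on single libraries: 42 members were called without eWAT WT replicate 2, among 7295 genes in place of 5398, 29 without eWAT WT replicate 1 (3652 genes), and 28 without liver WT replicate 1, 2 or 3 (2461, 3258 and 2235 genes). On the FPKM scale the median of all genes moved to -1.21 (iWAT) and -1.03 (eWAT) with a pseudocount of 1, and the members kept their direction there: 41 of 41 and 32 of 32 called members that could be tested had the same sign.

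Among the glucuronosyltransferases, the largest fold changes over iWAT were of genes that passed the filter through liver alone. Ugt2b35 stood at 57.7, 37.4 and 82.2 FPKM in WT liver, against 0.060, 0.040 and 0.15 FPKM in WT iWAT, a log2 fold change of 10.78 ± 0.55 (SE). Ugt1a9 had 10.93 ± 0.90 and Ugt1a5 10.71 ± 0.78. Of the 16 glucuronosyltransferases tested between liver and iWAT, 15 were called higher in liver and Ugt1a7c lower, beside 27% and 35.1% of all genes. Of those 15, Ugt1a10, Ugt1a5, Ugt1a9, Ugt2a3, Ugt2b35, Ugt2b38 and Ugt3a1 passed the filter through liver alone and had to be higher there. Ugt1a7c stood at 0.97, 1.06 and 0.78 FPKM in WT liver, against 5.40, 15.4 and 7.82 FPKM in WT iWAT, a log2 fold change of -3.22 ± 0.46 (adjusted p = 9.54e-04).

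Sult1d1, Sult1b1 and Sult2a7, which also passed through liver alone, led the sulfotransferases. Sult1d1 stood at 32.0, 61.1 and 52.7 FPKM in WT liver, against 0.020, 0.050 and 0.060 FPKM in WT iWAT (log2 fold change 11.39 ± 0.54). Sult1b1 had a log2 fold change of 10.84 ± 0.49. Sult2a7 had no read in any WT fat library and was at least 267-fold higher in liver than in iWAT and at least 235-fold higher than in eWAT, taking 3 counts over the fat libraries as the limit. Ugt1a10, also without a read in WT eWAT, was at least 327-fold higher in liver than in eWAT by the same limit. Sult1e1, which passed the filter through eWAT alone and so had to be lower in liver, stood at 0.28, 0.80 and 0.12 FPKM in WT liver, against 30.0, 1.92 and 9.65 FPKM in WT eWAT, a log2 fold change of -3.78 ± 1.18 (adjusted p = 0.0426). That call was lost when any 1 of the liver WT libraries, or eWAT WT replicate 1 or 3, was left out (adjusted p between 0.0603 and 0.145), with no filter on low counts (0.0573) and with a replicate block (0.157), and in the KO libraries the contrast was 0.49 on the log2 scale, with the opposite sign.

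Of the 21 glutathione transferases tested between liver and iWAT, 18 were called higher in liver and 1 lower, beside 27% and 35.1% of all genes. Gstm3, of the mu class, was nearly liver-restricted and passed the filter through liver alone, at 36.5, 29.6 and 46.7 FPKM in WT liver, against 0, 0.030 and 0.080 FPKM in WT iWAT (log2 fold change 11.19 ± 0.50). Gsta1 and Gsta2, of the alpha class and likewise filtered in through liver, followed with 8.74 ± 1.11 and 7.52 ± 0.47. Gsto2, of the omega class, which passed the filter through fat alone, was lower in liver, at 0.040, 0 and 0.040 FPKM in WT liver, against 0.47, 1.11 and 0.88 FPKM in WT iWAT (log2 fold change -3.64 ± 0.84). Gstz1, Gstm2 and Gstm5 were well expressed in both kinds of tissue. Gstz1 was still called higher in liver than in iWAT (log2 fold change 1.94, edgeR adjusted p = 7.61e-03), and Gstm5 did not pass that test (adjusted p = 0.139).

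Liver-restricted members had small values in fat. The level in fat of the 9 Ugt2 and Ugt3 genes that averaged at least 10 FPKM in WT liver was set against the liver mean. That mean is over the liver libraries of both genotypes. The median level in a fat library was between 0.0852% and 0.785% of it. Both that median and albumin were highest in eWAT KO replicate 2, where albumin stood at 0.644% of its liver mean. The lowest of both was eWAT KO replicate 1, with albumin at 0.0609%. Whether these reads come from fat cells was not tested.

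Between the fat depots, no member passed the test of iWAT against eWAT in WT libraries, where 0 of 14006 genes (0%) passed, and 7 of 33 members had an unadjusted p under 0.05, all with the lower value in iWAT, beside 14.6% of all genes. DESeq2 called 7 members lower in iWAT among its 1599 calls (8.83% of the genes it tested). On the KO libraries edgeR called 2 of 36 members, Sult1e1 and Ugt1a7c, among 1010 calls in 14386 genes tested. Of the 7 called by DESeq2, Gstm2, Gstm5, Gstm6, Gstm7 and Sult1c2 had their highest FPKM among the WT eWAT libraries in replicate 2. Sult1d1 and Sult1e1 had theirs in replicate 1.

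The Ugt1a genes need a separate account, because they are 1 locus on chromosome 1 in which each gene has its own promoter and first exon and all share their last exons. In the annotation, 1311 exon bases are common to every one of the 9 genes, which is 30.4 to 59.9% of each gene's exon bases. Some pairs share more. Ugt1a6a and Ugt1a7c share 2170 exon bases (50.3 and 51.4% of theirs), and Ugt1a6b shares 1444 with Ugt1a7c (60.6% of its own). Reads from shared bases were divided among the genes by the authors' estimate, and the split is uncertain. The sequences before the start sites are shown because they are what separates these transcripts. For 5 of the genes the 250 bases upstream of the RefSeq start (GRCm38.p6) are given from 5′ to 3′, with capitals marking the letters GTTAAT, a half-site of the liver factor HNF1, on either strand.
Ugt1a1, chr1:88211709-88211958, plus strand: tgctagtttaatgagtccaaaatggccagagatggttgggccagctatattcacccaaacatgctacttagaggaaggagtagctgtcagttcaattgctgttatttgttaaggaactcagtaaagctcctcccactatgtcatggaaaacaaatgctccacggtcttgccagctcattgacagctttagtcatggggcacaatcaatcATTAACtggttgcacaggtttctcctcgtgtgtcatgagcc
Ugt1a9, chr1:88070529-88070778, plus strand: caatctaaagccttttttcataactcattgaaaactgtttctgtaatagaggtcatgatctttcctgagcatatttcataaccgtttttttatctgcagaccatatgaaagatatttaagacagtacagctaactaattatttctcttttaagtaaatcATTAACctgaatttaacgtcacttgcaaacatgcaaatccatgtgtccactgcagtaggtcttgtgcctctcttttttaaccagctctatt
Ugt1a5, chr1:88165762-88166011, plus strand: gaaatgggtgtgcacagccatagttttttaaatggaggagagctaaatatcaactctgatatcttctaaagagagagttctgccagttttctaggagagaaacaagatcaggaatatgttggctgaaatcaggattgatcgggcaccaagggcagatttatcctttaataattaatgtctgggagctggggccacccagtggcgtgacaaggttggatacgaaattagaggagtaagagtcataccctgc
Ugt1a6a, chr1:88134559-88134808, plus strand: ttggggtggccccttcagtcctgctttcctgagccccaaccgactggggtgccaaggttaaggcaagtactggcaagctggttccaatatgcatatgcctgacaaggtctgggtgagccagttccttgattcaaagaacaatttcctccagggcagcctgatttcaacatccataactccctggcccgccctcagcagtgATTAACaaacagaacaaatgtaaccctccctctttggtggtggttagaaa
Ugt1a7c, chr1:88094751-88095000, plus strand: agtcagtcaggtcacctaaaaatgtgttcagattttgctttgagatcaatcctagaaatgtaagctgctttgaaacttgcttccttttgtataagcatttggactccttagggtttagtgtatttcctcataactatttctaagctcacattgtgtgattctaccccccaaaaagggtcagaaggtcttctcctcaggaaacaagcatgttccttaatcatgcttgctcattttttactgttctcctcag
Ugt1a1, Ugt1a9 and Ugt1a6a hold 1 match each, which begins 41, 91 and 50 bases before the start, and Ugt1a5 and Ugt1a7c hold none. The letters occur in 6.43% of the 32851 promoter windows of that length in the RefSeq table and in 14 of the 71 windows of the 58 members that have one (19.7% of their windows): in those of 7 of 17 sulfotransferases, 6 of 19 glucuronosyltransferases and 1 of 20 glutathione transferases. Of these 7 sulfotransferases, Sult2a3, Sult2a4, Sult2a6 and Sult3a2 had no read in any library and Sult2a5 at most 3 counts in a library. The letters TTCNNNGAA, bound by STAT factors, were found in 4 of the 71 windows (5.63%) and 7.02% of all windows, and TGACNNNGC, the core of the antioxidant response element, in 3 of the 71 (4.23%) and 10.2% of all windows. All were searched on both strands, and a match is a match of letters only.

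Shares of the locus differed between liver and fat. Ugt1a1 took 67.4 ± 2.0% of the Ugt1a counts in KO liver and 64.5 ± 4.2% in WT liver, and Ugt1a9 took 13.7 ± 0.6% in KO liver and 13.6 ± 6.8% in WT liver (SD, n = 3 each). In iWAT, Ugt1a6a, Ugt1a6b and Ugt1a7c took the counts, with 37.7 ± 5.0%, 34.5 ± 1.7% and 20.96 ± 3.5% in KO libraries and 45.1 ± 2.6%, 24.1 ± 2.9% and 27.2 ± 2.9% in WT libraries, and Ugt1a1 stayed at 5.22 ± 0.89% in KO libraries and 2.48 ± 1.74% in WT libraries. In eWAT WT replicate 2, Ugt1a6a took 93.6% of them.

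**Figure D2:**
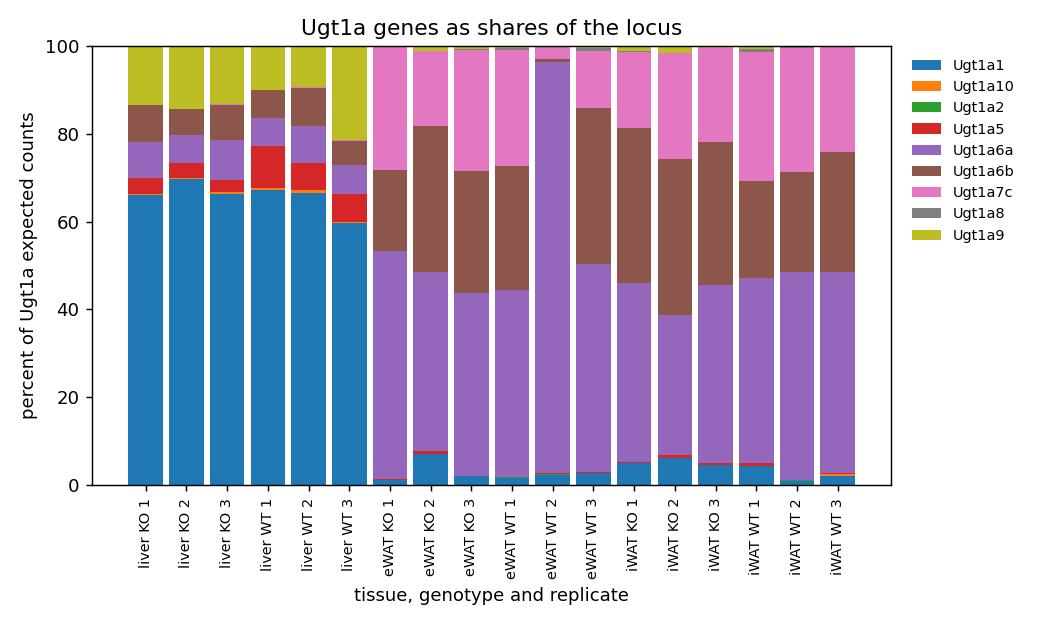
Expected counts of the 9 Ugt1a genes as percent of their sum in each library, with KO left of WT within each tissue. Ugt1a1 fills 59.7 to 69.6% of each liver bar and 0.966 to 7.10% of each fat bar, where Ugt1a6a, Ugt1a6b and Ugt1a7c take nearly all.

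In liver, KO was set against WT to ask whether the conjugating enzymes differ with the genotype. No member passed: 0 of 47 tested members had an adjusted p under 0.05 in the edgeR quasi-likelihood test, where 6 of 11915 genes (0.0504%) did. Unadjusted, 11 of 47 members had a p under 0.05, beside 6.04% of all genes, 3 with the higher and 8 with the lower value in KO. In 12 of 47 members the KO and WT libraries did not overlap, beside 13% of all genes: 3 lay higher in every KO library, beside 5.98% of all genes, and 9 lower, beside 6.97%. These overlaps are of TMM-scaled CPM. On the FPKM scale, where the median log2 fold change of all genes was 0.09 in liver, 0.31 in eWAT and 0.12 in iWAT with a pseudocount of 1, 5 members lay higher in every KO liver, beside 8.81% of all genes, and 7 lower, beside 3.56%. The median log2 fold change of the members was -0.11, and that of all genes -0.00. limma-voom also called 0 members, beside 0.0252% of all genes, and DESeq2 called 4 (Sult5a1, Papss1, Sult1e1 and Ugt1a5) among its 63 calls, 0.387% of the genes it tested. The same 4 members passed in edgeR, with adjusted p between 0.0374 and 0.0401, when liver WT replicate 2 was left out. In that fit 25 of 12160 genes passed, in place of 6 of 11915. No member passed when any other 1 liver library was left out. Liver WT replicate 2, the library with few endothelial transcripts, also had the highest sum of hepatocyte markers. Its macrophage markers were mixed. Adgre1 stood at 25.1 CPM, against 65.4 to 75.7 CPM in the other 5 livers, and Csf1r and Mrc1 were also lowest there. Lyz2 was highest there at 204 CPM, and Cd68 lay within the range of the others. The macrophage markers summed to 407 CPM, against 425 to 584 CPM in the other 5 livers. The part of these cells in the calls was not tested.

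**Figure D3:**
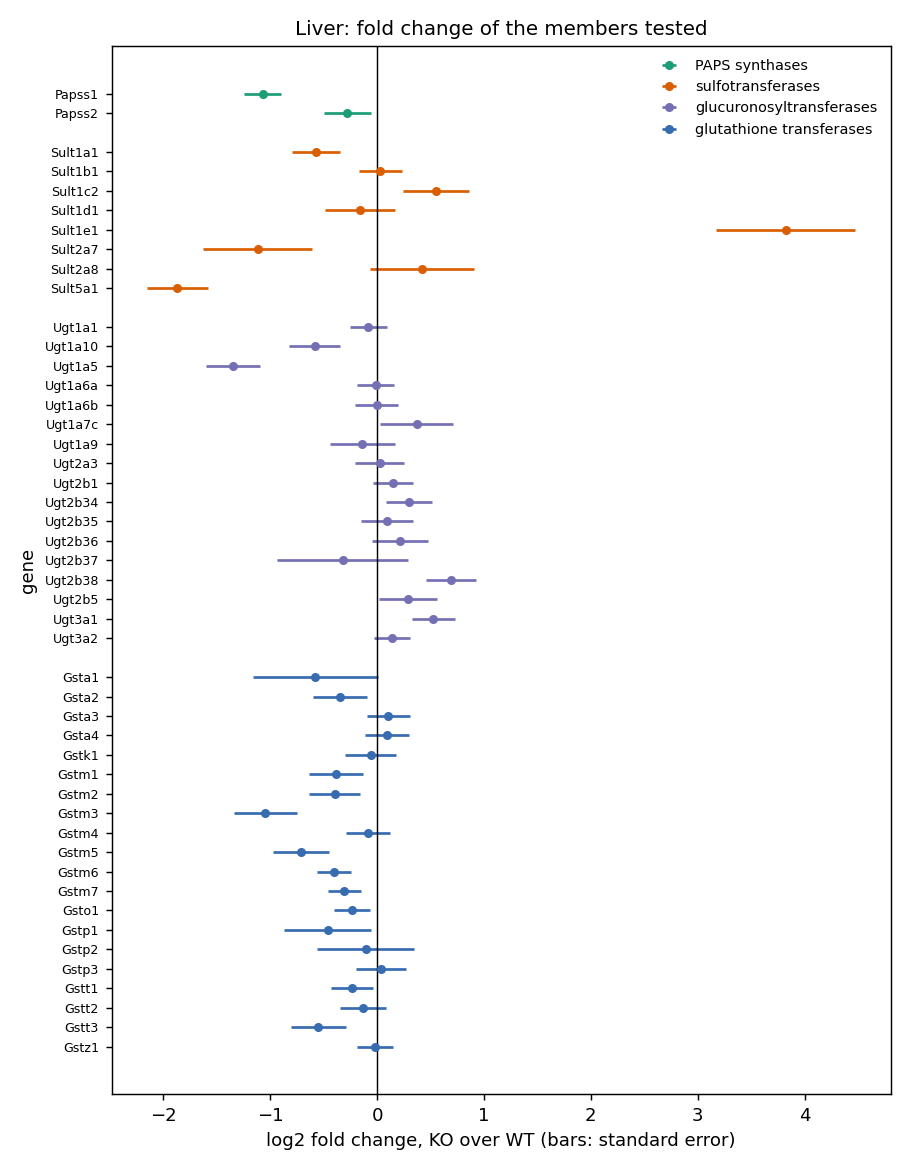
Log2 fold change of KO over WT in liver, with standard errors, for the 47 members tested, by family from top to bottom. Sult1e1 lies furthest to the right at 3.82 and Sult5a1 furthest to the left at -1.87; most others lie within 1 of 0, and none passed the adjusted threshold.

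On the side of the sulfate donor, Papss1 was lower in every KO liver. It stood at 9.62, 10.1 and 11.3 CPM in KO libraries (here scaled within the tissue), against 22.6, 22.8 and 19.8 CPM in WT libraries. The groups did not overlap, and the log2 fold change was -1.07 ± 0.17 (SE, adjusted p = 0.153; DESeq2 adjusted p = 9.89e-05). Papss2, the major synthase in liver, overlapped between the groups, at 113, 158 and 159 CPM in KO libraries, against 219, 157 and 145 CPM in WT libraries (-0.28 ± 0.22, adjusted p = 0.853).

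The sulfotransferases held the largest differences in both directions. Sult5a1 stood at 1.87, 2.85 and 2.21 CPM in KO liver, against 10.8, 8.37 and 6.25 CPM in WT liver. Its groups did not overlap, and the log2 fold change was -1.87 ± 0.28 (adjusted p = 0.112; DESeq2 adjusted p = 9.13e-06). Sult1e1, the estrogen sulfotransferase, stood at 3.60, 7.36 and 11.4 CPM in KO liver, against 0.344, 1.16 and 0.141 CPM in WT liver. All KO libraries were above all WT libraries, and the log2 fold change was 3.82 ± 0.65 (adjusted p = 0.153; DESeq2 adjusted p = 7.00e-08). It was among the least abundant members tested, with 31 expected counts in the 3 WT libraries together and 491 in the KO libraries. Only 1 WT library reached 10 counts, so it passed the filter on low counts through the KO libraries. A gene that passes in this way is nearly bound to be higher in KO, so its values in liver are descriptions.

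The abundant sulfotransferases differed less. Sult1a1 stood at 179, 217 and 207 CPM in KO liver, against 220, 391 and 282 CPM in WT liver, with no overlap (log2 fold change -0.57 ± 0.22, adjusted p = 0.758). Sult2a8 and Sult1d1 overlapped, with log2 fold changes of 0.42 ± 0.49 and -0.16 ± 0.32. The summed FPKM of the family was 395 ± 105 in KO liver and 397 ± 95 in WT liver (SD, n = 3 each).

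Of the glucuronosyltransferases, Ugt1a5 had the lowest p. It stood at 55.3, 57.8 and 42.8 CPM in KO liver, against 184, 103 and 109 CPM in WT liver, without overlap (log2 fold change -1.35 ± 0.25, adjusted p = 0.227; DESeq2 adjusted p = 3.40e-04). Its share of the Ugt1a counts was 3.48, 3.43 and 2.77% in KO liver, against 9.60, 6.28 and 6.20% in WT liver, and the 9 genes together summed to 1588, 1684 and 1544 CPM in KO liver, against 1918, 1646 and 1757 CPM in WT liver. The sum overlapped between the groups, and the division of reads among the Ugt1a genes bears on the value of Ugt1a5. Ugt1a1 itself was at 1050, 1173 and 1025 CPM in KO liver, against 1290, 1096 and 1048 CPM in WT liver (-0.08 ± 0.18, adjusted p = 0.952).

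The Ugt2 and Ugt3 genes leaned the other way without passing. Of the 7 Ugt2b genes 6 had the higher mean in KO, with a median log2 fold change of 0.21, and all 7 overlapped in CPM, whereas Ugt2b38 was without overlap in FPKM. Ugt2b38 stood at 79.8, 111 and 118 CPM in KO liver, against 61.8, 48.3 and 81.3 CPM in WT liver (0.69 ± 0.23, adjusted p = 0.640). Ugt3a1, whose human counterpart uses a sugar other than glucuronic acid, stood at 112, 158 and 107 CPM in KO liver, against 101, 83.0 and 78.5 CPM in WT liver, without overlap (0.53 ± 0.20, adjusted p = 0.729). The most abundant members, Ugt2b5 and Ugt2b36, had log2 fold changes of 0.29 ± 0.27 and 0.21 ± 0.26. Genes of the Ugt2b, Gsta, Gstm and Gstp classes are close paralogs, and how the authors' counting divided reads among them is not stated in the sources used here.

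**Figure D4:**
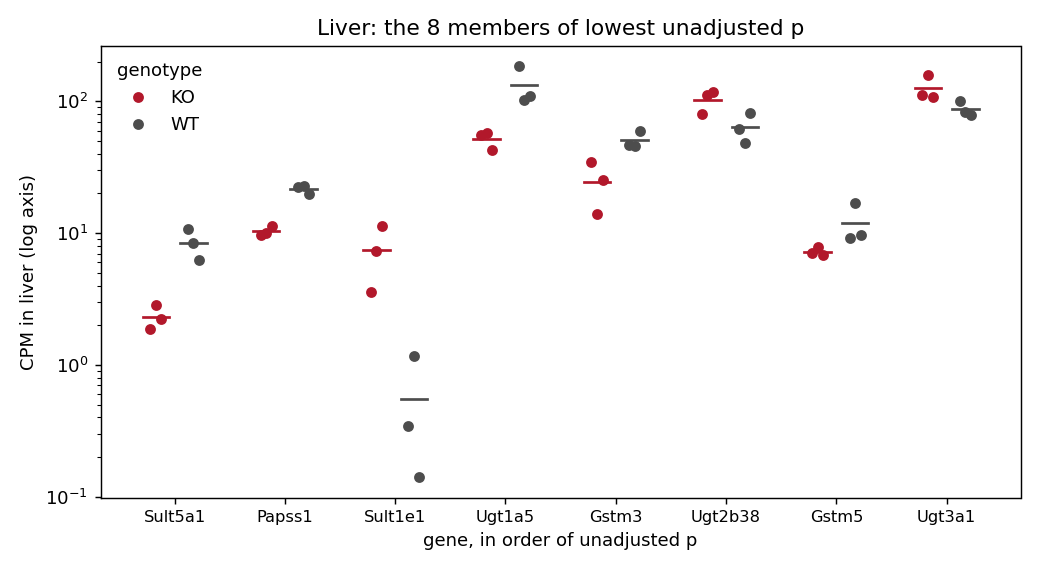
CPM in each liver library, on a log axis, of the 8 members of lowest unadjusted p, with KO (red) left of WT (grey) and a line at each mean. KO and WT libraries do not overlap for 7 of the 8 genes, Ugt2b38 being the one that overlaps, and no gene passed the adjusted threshold.

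Of the glutathione transferases, 17 of 20 had a negative log2 fold change in KO liver, with a median of -0.27, and the 7 genes of the mu class were among them. On the FPKM scale 13 of 20 had the lower mean in KO, 6 of the 7 mu class genes among them, with Gstm4 at 26.0 FPKM in KO liver and 24.5 FPKM in WT liver. Without liver WT replicate 2, 12 of 20 were negative. Gstm3 stood at 34.5, 13.9 and 25.5 CPM in KO liver, against 46.8, 45.7 and 59.7 CPM in WT liver (-1.04 ± 0.30, adjusted p = 0.538). Gstm5 stood at 7.10, 7.86 and 6.79 CPM in KO liver, against 9.21, 16.9 and 9.68 CPM in WT liver (-0.71 ± 0.26, adjusted p = 0.691). Both were without overlap on either scale. Gstm6 and Gstm7 were without overlap in CPM and overlapped in FPKM. The major genes of the family overlapped. Gstp1 had a log2 fold change of -0.46 ± 0.41, Gstm1 of -0.39 ± 0.25 and Gsta3 of 0.10 ± 0.20.

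In eWAT, 0 of 38 tested members passed, where 0 of 14657 genes (0%) did, and 5 members had an unadjusted p under 0.05, beside 5.75% of all genes. DESeq2 called 0 members among its 128 calls (0.71% of the genes it tested). In 4 members the groups did not overlap, beside 15% of all genes. Those 4 were lower in every KO library in CPM, beside 7.54% of all genes, and 2 of them, Gstk1 and Gstp1, also in FPKM. Gstk1, of the kappa class found in mitochondria and peroxisomes, stood at 30.4, 27.6 and 29.2 FPKM in KO eWAT, against 32.3, 50.2 and 35.2 FPKM in WT eWAT (log2 fold change -0.77 ± 0.21, adjusted p = 0.706). Ugt1a6a had -0.62 ± 0.21, Gstp1 -0.69 ± 0.24 and Gsta4, which acts on the lipid peroxidation product 4-hydroxynonenal, -1.05 ± 0.40, at the same adjusted p. Gsta4 stood at 33.1, 10.1 and 21.1 FPKM in KO eWAT, against 28.1, 36.0 and 35.8 FPKM in WT eWAT, and so overlapped on that scale.

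Several extreme values of eWAT members lay in WT replicate 2, where the epididymal markers were high. Others lay in KO replicates 1 and 3, where Crisp1 alone of those markers was high. Gstm7 stood at 96.4, 2.5 and 24.2 FPKM in KO eWAT, against 31.4, 443 and 3.54 FPKM in WT eWAT. Gstm6, Gstm2, Gstt3 and Papss1 were likewise highest in WT replicate 2, at 91.3, 409, 80.1 and 80.2 FPKM. In that library Gstz1, Papss2, Sult1a1 and Ugt1a6b were at 30.5, 3.11, 9.29 and 0.30 FPKM, the lowest of the 6. Gsta2 was high in the KO libraries with abundant Crisp1, at 11.8, 0.39 and 8.59 FPKM in KO eWAT, against 0.060, 0.68 and 0 FPKM in WT eWAT. It reached 10 counts in KO replicates 1 and 3 and, after rounding, in WT replicate 2, and passed the filter through these. Its log2 fold change was 4.48 ± 1.77 (adjusted p = 0.706). Gstt4 and Gsto2 reached 14.7 and 13.1 FPKM in KO replicate 1, the library with spermatid transcripts, and at most 0.40 and 1.64 FPKM in the other 5. The part of epididymal and spermatid RNA in these values was not tested.

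**Figure D5:**
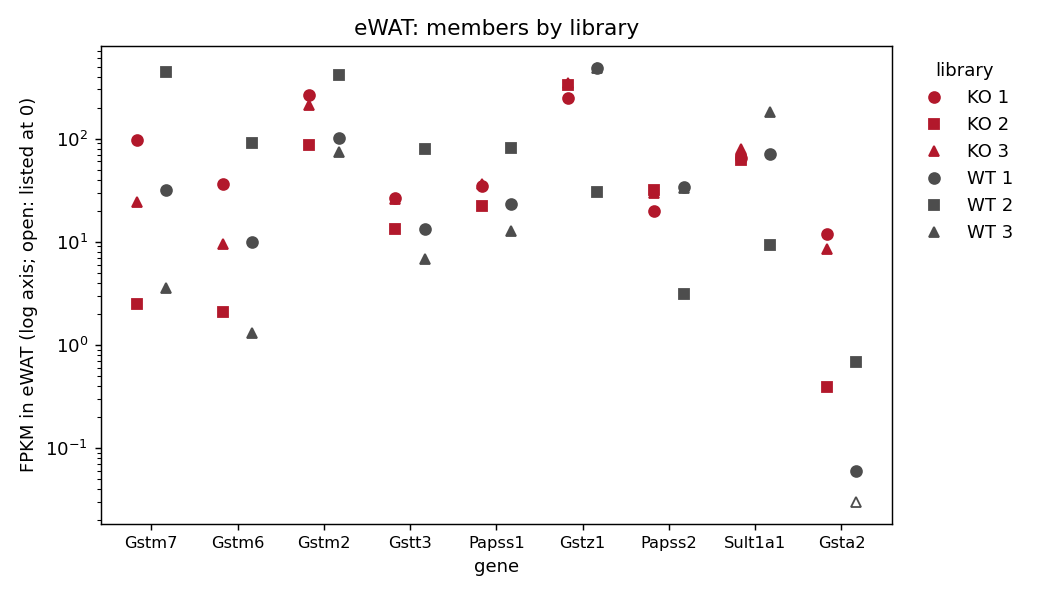
FPKM of 9 members in each eWAT library on a log axis, KO (red) left of WT (grey), with 1 marker shape per replicate and an open marker for a value listed at 0. WT replicate 2 is the highest of the 6 libraries for Gstm7, Gstm6, Gstm2, Gstt3 and Papss1 and the lowest for Gstz1, Papss2 and Sult1a1; Gsta2 is high in KO replicates 1 and 3.

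In iWAT, 0 of 32 tested members passed, where 0 of 14226 genes (0%) did, and 1 member had an unadjusted p under 0.05, beside 4.17% of all genes. DESeq2 called 0 members among its 58 calls (0.318% of the genes it tested). Ugt1a7c stood at 6.29, 3.84 and 3.96 FPKM in KO iWAT, against 5.40, 15.4 and 7.82 FPKM in WT iWAT (log2 fold change -1.15 ± 0.46, adjusted p = 0.9998). Gstt1, of the theta class, stood at 129, 60.2 and 65.4 FPKM in KO iWAT, against 31.7, 55.1 and 30.2 FPKM in WT iWAT (0.96 ± 0.47, adjusted p = 0.9998). Gsto2 had a log2 fold change of 1.14 ± 0.67 and Ugt1a6a of -0.96 ± 0.58. Gstt1 was without overlap in FPKM but overlapped in CPM. Ugt1a1 was the 1 member without overlap in CPM (beside 9.38% of all genes) and lay higher in every KO library (beside 4.34%), at 2.31, 1.38 and 1.20 FPKM in KO iWAT, against 1.13, 0.68 and 0.98 FPKM in WT iWAT (0.74 ± 0.41, adjusted p = 0.9998), levels near those of the liver-restricted genes in these libraries. The summed adipocyte markers ranged from 3365 to 7942 CPM in KO iWAT and from 1924 to 6096 CPM in WT iWAT. The sum of 5 macrophage markers did not overlap, at 949 to 1487 CPM in KO iWAT and 2072 to 2327 CPM in WT iWAT, and the B cell markers were near 0 in WT replicate 2 alone. The part of these cells in the values was not tested.

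Whether the genotype difference itself differed between tissues was tested by interaction. No member passed for liver minus iWAT (48 tested), liver minus eWAT (50 tested) or iWAT minus eWAT (40 tested), where 0% of all genes passed in each, and 9, 3 and 1 members had an unadjusted p under 0.05, beside 4.8, 5.3 and 4.78% of all genes. Papss1 had the lowest p for liver minus iWAT, with a difference of log2 fold changes of -1.14 ± 0.22 (adjusted p = 0.484; DESeq2 adjusted p = 0.0330). Sult1e1 followed with 4.42 ± 1.12 (adjusted p = 0.749; DESeq2 adjusted p = 0.0330) and had the lowest p for liver minus eWAT, with 4.35 ± 1.28 (adjusted p = 0.866). Apart from those, DESeq2 called no member in the 3 contrasts, where it called 0.19, 0.226 and 0.168% of the genes it tested. Gsta2 had the lowest p for iWAT minus eWAT, with -4.76 ± 1.87 (adjusted p = 0.969), and rests on the eWAT values above.

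Genes around these reactions were not called either. Lists of sulfate and PAPS supply, UDP-glucuronic acid supply, glutathione synthesis, microsomal glutathione transferases, the NRF2 pathway, xenobiotic receptors, removal and export of conjugates, and related transferases had 0 genes past the threshold in any tissue, in either direction, out of 4 to 11 tested per list and tissue. In liver, unadjusted p-values under 0.05 came from Impad1 for sulfate supply, from Nfe2l2, Hmox1 and Aox1 in the NRF2 list of 11, from Ahr among 10 receptors and from Arsa, a sulfatase, among 10 genes of removal and export, all with the higher value in KO. Over all genes tested in liver, 6.04% had such a p. Ahr, the aryl hydrocarbon receptor, stood at 43.3, 75.9 and 59.7 CPM in KO liver, against 36.8, 27.2 and 31.2 CPM in WT liver, without overlap (log2 fold change 0.91 ± 0.23, adjusted p = 0.499). Aox1 stood at 97.6, 79.9 and 86.0 CPM in KO liver, against 55.8, 44.1 and 70.7 CPM in WT liver (0.63 ± 0.20, adjusted p = 0.603). In eWAT, Gclc and Gclm, the subunits of the enzyme that limits glutathione synthesis, had log2 fold changes of -0.59 ± 0.19 and -1.04 ± 0.40 (adjusted p = 0.706 for both). At an unadjusted p under 0.05, Bpnt1 was also lower in KO eWAT, and Arsa and Abcg2 were higher, beside 5.75% of all genes. By that measure Hpgds, Alox5ap, Hmox1 and Abcc4 were lower in KO iWAT and Slc26a1 was higher, beside 4.17% of all genes. The median log2 fold change of the glutathione synthesis list was -0.09 in liver, -0.34 in eWAT and -0.10 in iWAT, beside -0.00, -0.02 and 0.01 for all genes.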

How the data were processed

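RNA of 18 tissue samples was measured by sequencing of polyadenylated RNA, per the labels' protocols. For every library the authors deposited 2 tables over the genes, of expected counts and of FPKM. The submitters' processing notes name fastp 0.18.0, HISAT2, Bowtie2 2.2.8, StringTie 1.3.1, RSEM and the build mm10, without their roles. Of the deposited expected counts, 8.33% were more than 0.01 from a whole number, and all were rounded before testing. Ensembl identifiers were matched to GENCODE M21 symbols (22255 of 22298).

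Genes were filtered with filterByExpr (minimum count 10, total 15), scaled by TMM and tested with edgeR 4.0.16 quasi-likelihood tests in R 4.3.3, within a tissue for KO against WT, between tissues in WT libraries and as interactions, with Benjamini-Hochberg adjustment over all genes tested and a threshold of 0.05. Standard errors are the fold change divided by the root of the F statistic. CPM are scaled within a tissue and cannot be compared between tissues; FPKM were used for levels. Totals ran from 16796147 to 28039742 counts, which limits values near 0. The test was tested on simulated counts.

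Alternatives were DESeq2 1.42.0, limma 3.58.1 (voom, and log2(FPKM + 1) or + 0.1), other scaling, no filter, a replicate block, all 18 libraries in the fit, and leaving out libraries; the overlap of libraries on the FPKM scale was added after the data were seen. Genes printed with library values are the 8 members (liver) or 5 (fat) of lowest p, the 3 of highest WT FPKM per family, both synthases, and the largest tissue differences; others named beyond this, such as Gstm7 in eWAT, were chosen after their values were seen. The members and lists were chosen with earlier results of these data known. Libraries were grouped by the labels' genotype and tissue.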

Additional observations from a re-analysis of the deposited data

How the results depend on the processing

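The directions printed for liver KO against WT held in every alternative for 15 of 18 genes. The exceptions were values near 0: Sult1d1 ran from -0.42 to 0.16 and Ugt1a1 from -0.14 to 0.0158 when 1 library was left out, Gsta3 from -0.00872 to 0.22, and on the FPKM scale Ugt1a1 stood at 0.0291, 0.0292 and 0.0291. In liver, the number of members called was 0 in most alternatives, 1 with no filter on low counts (Sult5a1), 4 with DESeq2 and 0 to 4 when 1 library was left out. The replicate block gave 4 members (Sult5a1, Papss1, Ugt1a5 and Gstm3) in liver, among 39 genes called in place of 6. KO and WT libraries of the same number correlated at -0.24 to 0.17 in liver, -0.52 to 0.01 in eWAT and -0.74 to 0.15 in iWAT, so the block value is not read as a paired result. Those correlations cannot show whether libraries of the same number from different tissues came from 1 mouse. That is not stated, and the main tests between tissues and of interactions treated the libraries as independent. Over all genes the calls between KO and WT were 6 in liver with edgeR and 63 with DESeq2, 0 and 128 in eWAT, and 0 and 58 in iWAT. DESeq2 called 7 members in iWAT against eWAT and 2 in liver minus iWAT, and the KO libraries gave 2 in iWAT against eWAT and 0.49 for Sult1e1 in liver against eWAT. For the named eWAT fold changes, 39 of the values under alternatives had the opposite sign, and 18 in iWAT, all of members given here as levels only. For liver against eWAT, Ugt1a7c lost its call without any 1 of liver WT replicates 1 to 3 or eWAT WT replicates 1 or 3 (adjusted p 0.0617 to 0.143), with no filter (0.0528), with the replicate block (0.131) and on the FPKM scale (0.0835 and 0.0718), and Gsto2 without liver WT replicate 1 or 3 (0.0617 and 0.0614). The causes were not tested. With 3 libraries a group, differences of low genes such as Sult1e1 are limited by depth, and counts of Ugt1a genes by the division of shared reads.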
